A study of Homo sapiens with 4 samples.

Results

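The SOX and forkhead (FOX) genes encode 2 families of developmental transcription factors, and their transcripts were followed after siRNA against SSRP1 in BE(2)C, a long-established line of human neuroblastoma cells. Members were taken by symbol alone, as every named gene called SOX or FOXA to FOXS followed by a number, with 1 probe set per symbol, chosen by its mean level, the highest being kept. This gave 63 of 14812 named genes, 19 SOX and 44 forkhead. FOXL2NB was included by its symbol, although it is named as the neighbour of FOXL2 and is not known as a forkhead factor.

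The series held 4 samples, each on 1 Affymetrix array of the Human Gene 2.0 ST design, 2 given a non-targeting control siRNA and 2 given SSRP1 siRNA, and no other genotype or agent than the shared Lipofectamine 2000 transfection. RNA was taken 72 hours after transfection. SSRP1 is a subunit of FACT, a histone chaperone that loosens and restores nucleosomes during transcription and replication. The labels give a single catalogue number for the SSRP1 siRNA, so effects of that siRNA on other transcripts cannot be told apart from those of SSRP1 loss. Whether the replicates are separate cultures is not in the labels, and the p-values therefore cover the spread among these arrays alone, possibly a technical one. In such bulk RNA, fewer cells of a type and less RNA per cell cannot be told apart.

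SOX proteins bind the minor groove of DNA through an HMG box and bend it, mostly together with a partner factor, and fall into groups A to H by the sequence of that box. Forkhead proteins bind through a winged helix domain, and some, such as the FOXA factors, can bind sites within closed chromatin. In the neural crest, from which neuroblastoma arises, SOX9, SOX10 and FOXD3 act in the precursors, while the SoxC factors SOX4 and SOX11 accompany neuronal differentiation.

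The arrays were alike, with median log2 values of 3.37 to 3.42 over all probe sets. The target was lower in both treated samples, with SSRP1 at 9.05 and 9.23 on the control arrays and at 7.42 and 6.97 on the SSRP1 siRNA arrays, so its groups did not overlap. That is a log2 change of -1.95 ± 0.17 (SE), 26.0% of control, with a limma adjusted p of 0.0479, which was not held under the replicate block, with robust variances, over all probe sets or without any 1 array. Cell identity was checked with marker genes: all 16 measured adrenergic neuroblastoma markers, among them PHOX2A, HAND2, GATA3 and DBH, lay at or above the median level of all genes (4.64) on every array. Their levels were not all alike between groups: 5 of the 16 (31.2%, against 15.8% of all genes at or above that level) had an unadjusted p under 0.05, 2 higher and 3 lower, none passed, and PHOX2A, HAND2, GATA3 and DBH had changes of -0.28, -0.38, -0.24 and -0.77. SUPT16H, the other FACT subunit, had a change of -0.07 (limma adjusted p = 0.821).

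No member passed limma's test at an adjusted p under 0.05, where 0.0945% of all genes did, or under 0.1, where 0.277% of all genes did. The lowest adjusted p of a member was 0.103, for SOX7. At an unadjusted p under 0.05 there were 7 of 63 members (11.1%) against 12.6% of all genes. Of these 2 were higher with SSRP1 siRNA, where 6.56% of all genes were, and 5 were lower, where 6.03% of all genes were. The groups did not overlap for 28 members (44.4%) against 44.3% of all genes, with 10 members higher (21.8% of all genes) and 18 lower (22.5% of all genes). The shares for both directions together are near the background, so the list as a whole did not stand out by those counts. By family, 4 of 19 SOX genes (21.1%) and 3 of 44 forkhead genes (6.82%) had an unadjusted p under 0.05. The groups did not overlap for 52.6% of SOX genes and 40.9% of forkhead genes. SOX7 and SOX9 were the 2 members that differed by 1.5-fold or more, against 2.35% of all genes. The median log2 change was 0.03 for SOX genes and -0.05 for forkhead genes, against -0.0072 for all genes. Neither median held its sign when single arrays were left out: without control replicate 2 they were -0.039 and 0.0007, and the SOX median was -0.078 without SSRP1 siRNA replicate 2.

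**Figure D1:**
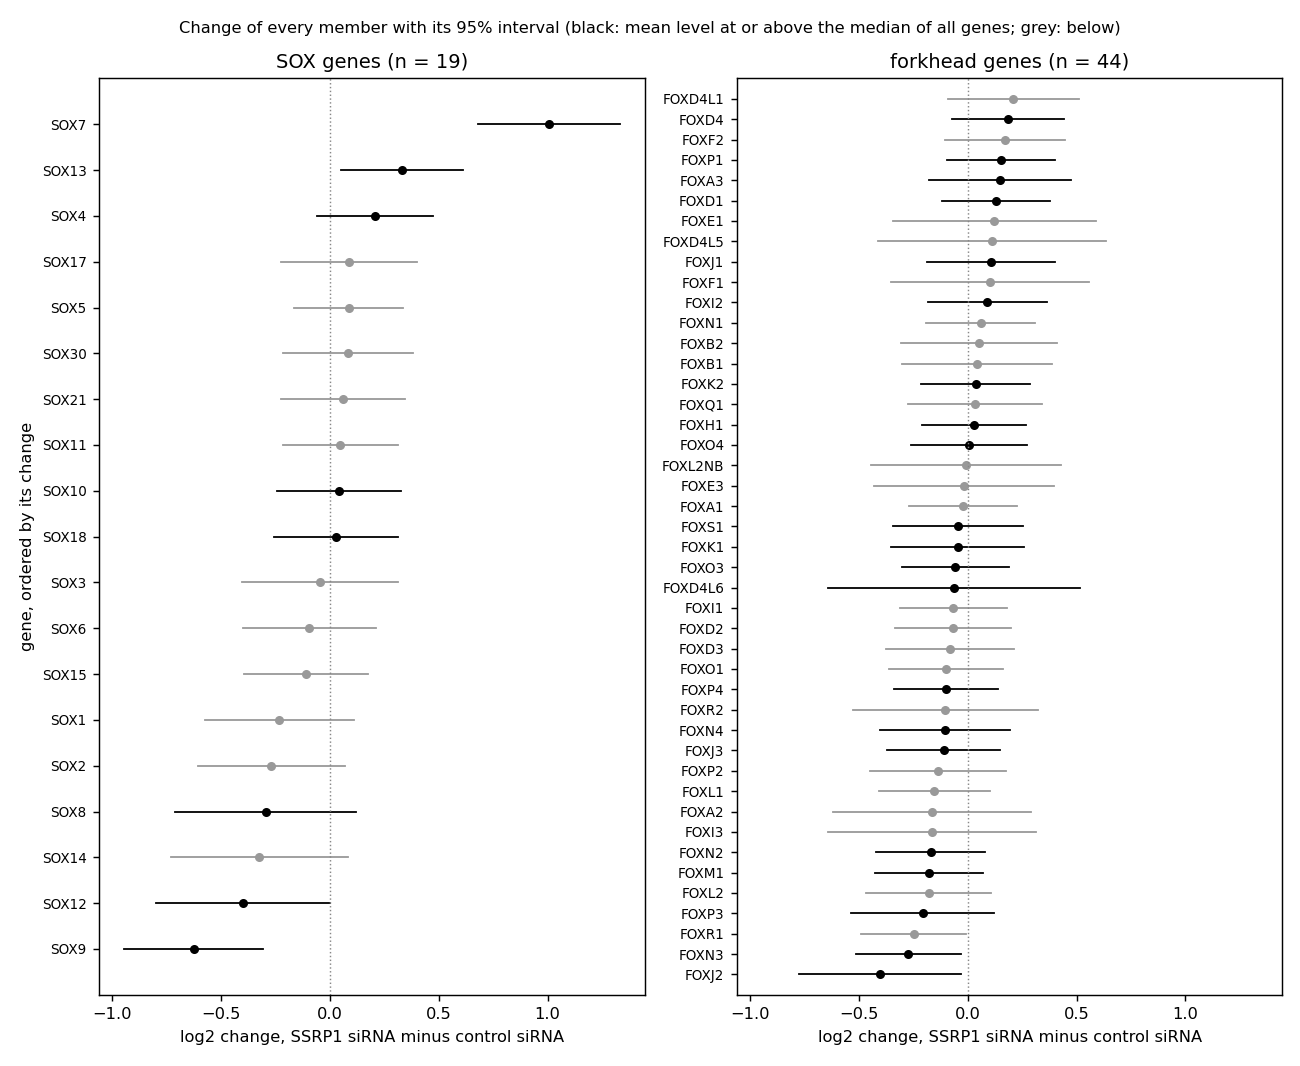
Log2 change of each member (x axis, SSRP1 siRNA minus control siRNA) with its limma 95% interval, SOX genes on the left and forkhead genes on the right, each ordered by its change on the y axis; black marks a mean level at or above the median of all genes and grey a level below it. SOX7 and SOX9 lie at the ends of the SOX panel, and the interval holds 0 for 56 of the 63 members.

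The SoxF group held SOX7, SOX17 and SOX18, factors of blood and lymph vessel formation of which SOX7 is also known to hold back Wnt signalling through beta-catenin. SOX7 (gene ID 83595) had log2 values of 8.36 and 8.07 on the control arrays and of 9.16 and 9.27 on the SSRP1 siRNA arrays. Both treated values lay above both control values, in a gene that was already well above the median level on the control arrays. The group means were 8.21 ± 0.20 (SD, n = 2) and 9.22 ± 0.077 (SD, n = 2). The change was 1.01 ± 0.13 (SE), or 2.01-fold with a 95% interval of 1.60 to 2.52, with a limma p of 0.000321 that became 0.103 when adjusted over all genes. SOX7 ranked 45 of 14812 genes by p, and 48 genes had a larger upward change. With a variance trend its limma adjusted p was 0.00744, and over genes at or above the median level it was 0.0163, so the call differs between these settings. Leaving out single arrays gave changes of 0.86 to 1.15.

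The other SoxF genes gave small changes. SOX17 had values of 4.03 and 4.17 with control siRNA and of 4.07 and 4.31 with SSRP1 siRNA, a log2 change of 0.09 with a 95% interval of -0.22 to 0.40. SOX18 had values of 5.14 and 5.16 and of 5.07 and 5.29, a change of 0.03 with an interval of -0.26 to 0.31. In both genes the groups overlapped, and both intervals end below the estimate for SOX7. The difference in change between genes was not itself tested.

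SoxE factors specify neural crest derivatives and cartilage. SOX9, needed for cartilage, testis and early crest, had values of 7.67 and 7.54 on the control arrays and of 7.11 and 6.85 on the SSRP1 siRNA arrays. Both treated values lay below both control values. The means were 7.60 ± 0.097 (SD, n = 2) and 6.98 ± 0.18 (SD, n = 2), a log2 change of -0.63 ± 0.13 (SE), which left 64.8% of control with a 95% interval of 51.9 to 80.8%. The limma unadjusted p was 0.00315 and the adjusted p 0.187. SOX9 ranked 249 of 14812 genes by p, and 96 genes had a larger downward change. With a variance trend the limma adjusted p was 0.045, and leaving out single arrays gave changes of -0.75 to -0.50. SOX8, which overlaps with SOX9 in function, had values of 4.80 and 5.26 against 4.69 and 4.78, a change of -0.30 with an interval of -0.71 to 0.12. SOX10, the Schwann cell and melanocyte factor, had values of 5.08 and 5.25 against 5.27 and 5.14, a change of 0.04 with an interval of -0.25 to 0.33. So SOX8 lay in the direction of SOX9 with groups that did not overlap, neither gene passed, and the groups of SOX10 overlapped.

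**Figure D2:**
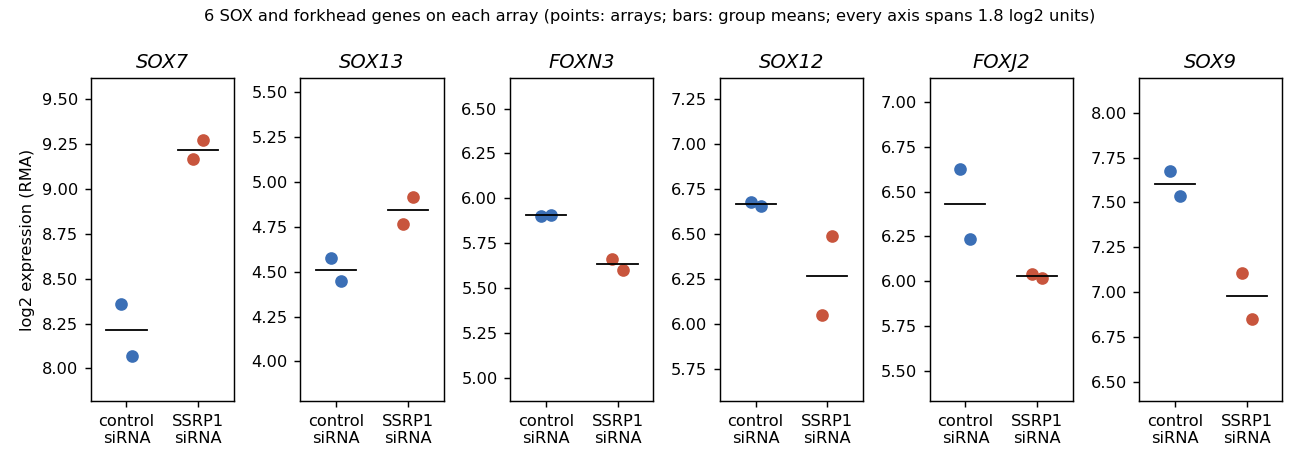
Log2 expression on each array (y axis, each spanning 1.8 log2 units) for the 6 members with an unadjusted p under 0.05, groups that did not overlap and a mean at or above the median of all genes; points are arrays and bars are group means. SOX7 and SOX13 are higher on both SSRP1 siRNA arrays, while FOXN3, SOX12, FOXJ2 and SOX9 are lower on both. The control mean of SOX13 lay below the median of all genes.

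The SoxC factors act in neurons leaving the cell cycle. SOX12 had values of 6.68 and 6.66 with control siRNA and of 6.05 and 6.49 with SSRP1 siRNA. The treated arrays differed from each other by more than the nearer of them differed from the controls. The change was -0.40 ± 0.16 (SE) with a limma adjusted p of 0.396, and it was -0.18 when SSRP1 siRNA replicate 1 was left out and -0.62 when replicate 2 of that group was. Another probe set of SOX12 gave a change of -0.21. SOX4 had values of 9.07 and 8.91 against 9.19 and 9.20, a change of 0.21 with an interval of -0.06 to 0.47, opposite in sign to SOX12. SOX11, a core factor of adrenergic neuroblastoma, had values of 2.99 and 3.05 against 3.00 and 3.14, a change of 0.05 with an interval of -0.22 to 0.31. All its values lay below the median level of all genes, where a probe set can reflect background as well as RNA; no detection calls were used here.

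SoxD factors carry no activation domain of their own and act beside other SOX proteins. SOX13 had values of 4.58 and 4.45 with control siRNA and of 4.77 and 4.92 with SSRP1 siRNA, so that both treated arrays were higher. Its change was 0.33 ± 0.11 (SE), with an interval of 0.05 to 0.61 and a limma adjusted p of 0.347. The control mean of SOX13, 4.51, lay below the median level of all genes, and its treated mean, 4.84, lay above it. SOX5 and SOX6, the cartilage partners of SOX9, had changes of 0.09 and -0.09 and were below the median level. The SoxB1 genes, which maintain neural progenitors, were also below it, with changes of -0.23 for SOX1, -0.27 for SOX2 and -0.05 for SOX3. In SOX1 and SOX2 both treated arrays were lower, although every interval held 0. The SoxB2 repressors SOX14 and SOX21 had changes of -0.32 and 0.06, and SOX15 and SOX30 had changes of -0.11 and 0.08. Of the SoxD, SoxB, SoxG and SoxH genes, SOX13 alone had an unadjusted p under 0.05.

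Among forkhead genes the changes were smaller, from -0.40 to 0.21, and 39 of 44 lay within 0.2 of 0 in either direction. An unadjusted p under 0.05 was found for 3 (6.82%, against 12.6% of all genes), a share below the background. Each of the 3 was lower with SSRP1 siRNA, where 6.03% of all genes were, so in that direction the share was near the background. FOXJ2, a broadly expressed activator, had values of 6.63 and 6.24 with control siRNA and of 6.04 and 6.02 with SSRP1 siRNA. The treated arrays were close together and the control arrays were not. The change was -0.40 ± 0.15 (SE) with a limma adjusted p of 0.374, and leaving out control replicate 1 made it -0.21 and leaving out control replicate 2 made it -0.60. FOXN3, a repressor linked to the cell cycle checkpoint, had values of 5.90 and 5.90 against 5.66 and 5.60. Replicates of FOXN3 agreed closely in both groups, and its change of -0.27 ± 0.099 (SE, limma adjusted p = 0.361) lay between -0.30 and -0.24 when single arrays were left out. FOXR1, known for rearrangements in rare neuroblastomas, had group means of 3.27 and 3.02, a change of -0.25 (limma adjusted p = 0.389) at a level below the median of all genes.

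In the FOXM, FOXN and FOXR group 6 of 7 members lay below 0, where 51.7% of all genes did, with a median of -0.17. Without SSRP1 siRNA replicate 2 it was 4 of 7, with a median of -0.14. FOXM1, which drives the genes of mitosis, had values of 8.85 and 8.80 with control siRNA and of 8.61 and 8.69 with SSRP1 siRNA. Both treated arrays were lower, and the change was -0.18 with an interval of -0.43 to 0.07. FOXN2 had a change of -0.17, again with groups that did not overlap, and FOXN4, FOXR2 and FOXN1 had changes of -0.10, -0.10 and 0.06. In the FOXJ and FOXK group FOXJ3 had a change of -0.11, the cilia factor FOXJ1 one of 0.11, and FOXK1 and FOXK2, regulators of glycolysis and autophagy, changes of -0.05 and 0.04.

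FOXO factors are held in the cytoplasm by AKT when insulin or growth factor signalling is active, so their activity is set more by location than by transcript. FOXO1 had values of 3.98 and 3.99 with control siRNA and of 3.82 and 3.96 with SSRP1 siRNA, a change of -0.10 with an interval of -0.36 to 0.16. FOXO3 and FOXO4 had changes of -0.06 and 0.0046, with intervals of -0.30 to 0.19 and of -0.26 to 0.27. For none of these 3 genes did the interval reach a change of 1.5-fold. In the FOXP group FOXP1, FOXP2, FOXP3 and FOXP4 had changes of 0.15, -0.14, -0.21 and -0.10. FOXP1, a factor of lymphocytes and neurons, was higher on both treated arrays, and FOXP4 was lower on both, without an unadjusted p under 0.05 for either.

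The remaining forkhead genes had no unadjusted p under 0.05. The pioneer factors FOXA1, FOXA2 and FOXA3 had changes of -0.02, -0.16 and 0.15, and FOXB1 and FOXB2 changes of 0.04 and 0.05. In the FOXF, FOXL, FOXQ and FOXS group the changes ran from -0.18 for FOXL2, an ovary factor, through -0.15 (FOXL1), -0.05 (FOXS1), 0.03 (FOXQ1) and 0.10 (FOXF1) to 0.17 for FOXF2. FOXE1, FOXE3, FOXH1, FOXI1, FOXI2 and FOXI3 had changes of 0.12, -0.02, 0.03, -0.07, 0.09 and -0.16, and FOXL2NB one of -0.0084. FOXD1, a factor of kidney stroma, was higher on both treated arrays with a change of 0.13, while another of its probe sets gave -0.08. The neural crest factor FOXD3 had a change of -0.08 at group means of 2.90 and 2.82, and FOXD2 one of -0.07. FOXD4, FOXD4L1, FOXD4L5 and FOXD4L6 had changes of 0.18, 0.21, 0.11 and -0.06, while another probe set of FOXD4L6 gave 0.15. These FOXD4 copies are nearly identical in sequence, so their probe sets may share signal and their values are uncertain.

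**Figure D3:**
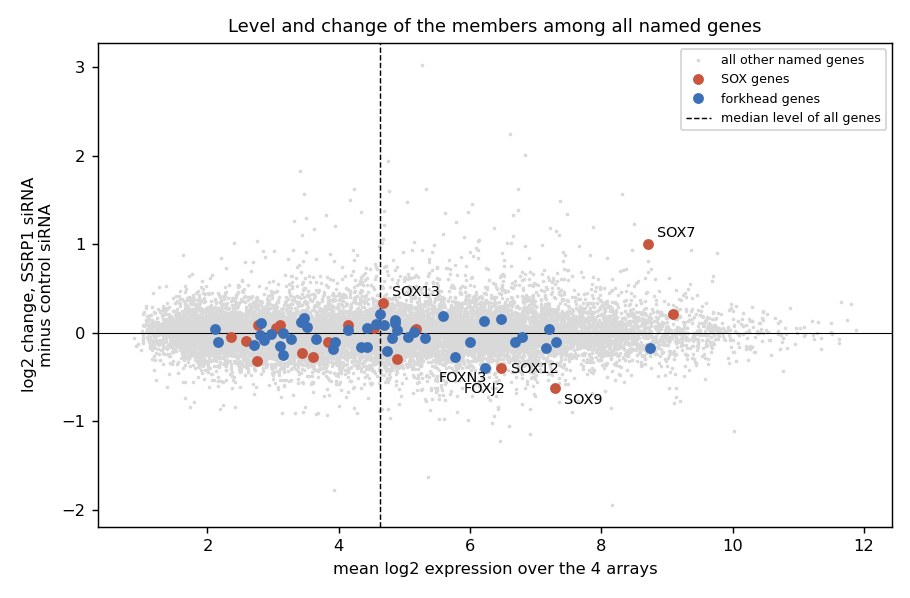
Log2 change (y axis, SSRP1 siRNA minus control siRNA) against the mean log2 expression over the 4 arrays (x axis) for all 14812 named genes, with SOX genes in red and forkhead genes in blue; the dashed line is the median level of 4.64. SOX7 lies apart from the other members at a change of 1.01, and the 34 members below the dashed line's level have changes between -0.32 and 0.21.

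Of the 29 members at or above the median level 6 (20.7%) had an unadjusted p under 0.05, against 15.8% of all genes in that range, and 17 (58.6%) had groups that did not overlap, against 53.4%. The level was the mean over both groups, so SOX13 (4.68) was in that range although its control mean (4.51) lay below the median level. Of the 34 members below it 1 (2.94%) had an unadjusted p under 0.05, against 9.38%. The cause of the lower share among these dim members was not tested. Changes from dim levels can be compressed on arrays, for any gene. The median SE of a member was 0.12, and the widest was 0.235, for FOXD4L6.

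The start regions of the members were read for base composition, which the choice by symbol did not use. RefSeq promoter windows on GRCh38.p14 matched 45 of the 63 members, and the 250 bases before the annotated start were used. These were 10 SOX and 35 forkhead genes, and SOX7 and SOX9 had no window. The median GC content of the 45 windows was 66.8%, against 58.0% over 27305 promoters, with a median of 20 CpG sites against 11. Those promoters were not limited to the genes tested here. The members varied widely around these medians, from 33.6 to 85.6% GC and from 0 to 44 CpG sites. GGGCGG, the GC box, was found on either strand in 30 of 45 windows (66.7%) against 42.3% of all promoters. CCAAT was found in 28.9% against 33.0%, TATAAA in 11.1% against 11.1%, the SOX core ACAAT in 22.2% against 25.2%, the forkhead core TAAACA in 4.44% against 11.1%, and the E-box CACGTG in 6.67% against 6.49%. No motif searched contains another, though matches can overlap. These are descriptions of letters in a window, not of binding.

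The windows of SOX12, SOX13, FOXJ2 and FOXN3 are printed because these are the members with values given for every array above that have both an unadjusted p under 0.05 and a window in the table. They run 5′ to 3′ up to the base before the start, with every match to the motifs above, on either strand, in capitals. They lie at chr20:325302-325551 on the plus strand for SOX12, at chr1:204072865-204073114 on the plus strand for SOX13, at chr12:8032466-8032715 on the plus strand for FOXJ2 and at chr14:89619166-89619415 on the minus strand for FOXN3.
SOX12: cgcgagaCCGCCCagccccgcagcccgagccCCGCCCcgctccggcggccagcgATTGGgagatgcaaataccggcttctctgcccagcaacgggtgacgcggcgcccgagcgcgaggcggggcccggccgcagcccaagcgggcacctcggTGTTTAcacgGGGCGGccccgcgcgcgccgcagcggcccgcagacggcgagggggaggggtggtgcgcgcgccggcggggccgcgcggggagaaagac
SOX13: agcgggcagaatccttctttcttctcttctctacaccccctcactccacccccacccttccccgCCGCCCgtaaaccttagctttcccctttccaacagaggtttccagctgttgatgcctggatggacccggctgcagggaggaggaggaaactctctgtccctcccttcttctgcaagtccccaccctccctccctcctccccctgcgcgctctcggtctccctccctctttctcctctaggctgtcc
FOXJ2: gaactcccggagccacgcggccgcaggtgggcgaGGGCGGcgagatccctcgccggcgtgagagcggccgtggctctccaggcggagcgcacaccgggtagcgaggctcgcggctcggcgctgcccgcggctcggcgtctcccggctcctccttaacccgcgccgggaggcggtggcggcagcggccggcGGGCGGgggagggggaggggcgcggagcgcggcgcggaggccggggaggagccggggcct
FOXN3: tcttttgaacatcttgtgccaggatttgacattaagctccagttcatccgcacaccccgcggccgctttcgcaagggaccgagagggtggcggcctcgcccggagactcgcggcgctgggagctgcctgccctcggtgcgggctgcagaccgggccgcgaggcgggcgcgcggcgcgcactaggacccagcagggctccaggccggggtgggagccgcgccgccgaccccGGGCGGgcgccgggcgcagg

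SOX12, which was lower, and SOX13, which was higher, have GC contents of 79.2% and 60.8% and 42 and 8 CpG sites. FOXJ2 and FOXN3, both lower, have GC contents of 81.2% and 73.6% and 42 and 33 CpG sites. The GC box occurs 3 times in SOX12, 2 times in FOXJ2 and 1 time each in SOX13 and FOXN3. SOX12 also holds 1 match each to the CCAAT box and the forkhead core, the latter on the opposite strand 98 bases before the start.

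Genes named as antisense or overlapping transcripts of members were read as well. FOXN3-AS1 had values of 3.94 and 3.57 with control siRNA and of 4.43 and 4.95 with SSRP1 siRNA. Both treated arrays were higher while FOXN3 itself was lower on both. The FOXN3-AS1 change was 0.94 ± 0.21 (SE), with a limma adjusted p of 0.213. Its mean over the arrays was 4.22, below the median level of all genes. FOXN3-AS2 had a change of -0.02, FOXD2-AS1 one of -0.36 (limma adjusted p = 0.347) and SOX2-OT one of -0.09. None of these 4 passed.

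Genes linked to these factors were described as lists, with no list test. Those lists were drawn up with earlier results of these data known, so they are not independent evidence. Beside SOX7, 18 of 24 genes listed as vascular targets of SoxF factors were measured, and 2 rose and passed the limma test, CXCR4 (1.36), the CXCL12 receptor, and NOTCH1 (1.33), the Notch receptor (adjusted p = 0.0479 and 0.0493). A further gene of this list, the Notch target HEY1, had a change of 0.87 without passing (limma adjusted p = 0.113). In all, 14 of the 18 lay above 0 with a median of 0.21, and 8 (44.4%, against 12.6% of all genes) had an unadjusted p under 0.05, all higher. Restricted to brighter genes, those no lower than the median level, that median was 0.87, and in the other alternatives it kept its sign.

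Some endothelial markers were higher on the same arrays as SOX7. Of 13 measured markers 11 lay above 0 and 6 (46.2%, against 12.6% of all genes) had an unadjusted p under 0.05, all higher, and none passed. ECSCR, FLI1, ESAM, ERG, PLVAP and ENG had changes of 1.48, 1.35, 1.08, 0.68, 0.43 and 0.28. ENG lay at 7.90 with control siRNA and at 8.18 with SSRP1 siRNA, and ESAM at 5.37 and 6.45. The log2 of the summed linear level of the list was 8.81 to 8.87 on the control arrays and 9.18 to 9.58 on the SSRP1 siRNA arrays. VWF, KDR and EMCN stayed below the median level in both groups, at 3.17 and 3.12, at 2.88 and 2.97 and at 1.82 and 1.87. CLDN5, ESAM, KDR and TIE1 stand in both this list and the SoxF list, and without these 4 the SoxF list had 7 of 14 genes with an unadjusted p under 0.05, all higher, and a median of 0.27. The part of endothelial cells in the SOX7 value was not tested.

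Around SOX9 and SOX10, 10 of 20 glial and pigment targets of SoxE factors were measured, and EDNRB, the endothelin receptor of the neural crest, rose by 2.01 and passed (limma adjusted p = 0.0356). The calcium-binding glial marker S100B and the GDNF family receptor RET had changes of 0.47 and 0.36 without passing. The list median was 0.11, with 6 genes above 0 and 4 below, 3 higher and 1 lower with an unadjusted p under 0.05 (40.0%, against 12.6% of all genes). Of 9 measured cartilage targets none passed, 6 lay above 0 and 3 below with a median of 0.08, and 8 were below the median level of all genes. An unadjusted p under 0.05 was found for 4 (44.4%, against 12.6% of all genes), all higher. HAPLN1, ACAN and MATN2, genes of cartilage matrix picked by the smallest p, had changes of 1.26, 0.40 and 0.49, upward while SOX9 was lower. The means of these 3 genes lay below the median level in both groups. Of 9 measured Schwann and melanocyte markers 4 lay above 0 and 5 below, with a median of -0.0096, and 7 were below the median level of all genes. GFRA3 rose by 1.56 (limma adjusted p = 0.0267), from a group mean of 2.69 to 4.25, both below the median level of all genes. The log2 summed level of that list, GFRA3 included, was 6.91 to 6.93 on the control arrays and 7.16 to 7.21 on the SSRP1 siRNA arrays. MLANA and PMEL, defining markers of melanocytes, lay at 2.25 and 2.19 and at 2.89 and 2.85. Of the 3 measured fibroblast markers LUM had a change of 1.20 (limma adjusted p = 0.184) and DCN one of -0.04, with the log2 summed level at 7.71 to 8.21 and at 8.77 to 8.95. The part of these cells in the values of SOX9 was not tested.

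Beside the SoxC genes, 10 neuronal targets were measured and none passed, with 7 above 0. DCX, a microtubule protein of young neurons, had a change of 0.86, PLXNA2, a semaphorin receptor, one of 0.29 and DBN1, an actin binding protein, one of -0.25. Of 14 partner factors of SOX proteins none passed, and the Wnt pathway factor LEF1 (-0.30), ETS1 (0.48) and PAX8 (-0.19) had the smallest p. Of 17 neural crest transcription factors none passed, with 9 above 0 and 8 below, 1 higher and 4 lower with an unadjusted p under 0.05 (29.4%, against 12.6% of all genes). The homeobox genes DLX5 and MSX1 and the zinc finger gene SNAI1 had changes of -0.73, -0.43 and -0.58, in the direction of SOX9.

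For the forkhead factors, 27 of 40 FOXO targets were measured, and KLF2, a vascular zinc finger factor, rose by 1.62 and passed (limma adjusted p = 0.0267). TP53INP1 and SESN1, stress genes shared with p53, had changes of 1.17 and 0.50 without passing. The list had 18 genes above 0 and 9 below, with 5 higher and 3 lower at an unadjusted p under 0.05 (29.6%, against 12.6% of all genes) and a median of 0.08, while FOXO1, FOXO3 and FOXO4 themselves lay between -0.10 and 0.0046. Of 12 measured FOXO regulators none passed or had an unadjusted p under 0.05, with SGK1, a kinase that phosphorylates FOXO proteins, at 0.38, SGK2 at -0.23 and CDK2 at -0.22. Of 25 measured FOXM1 targets none passed and 21 lay below 0, as FOXM1 did, with a median of -0.13. All 25 lay at or above the median level. The groups did not overlap for 17 of these (68.0%, against 53.4% of all genes at or above that level), 16 of them lower, and 2 (8.0%) had an unadjusted p under 0.05, against 15.8% of such genes. The proliferation marker MKI67, the mitotic kinase gene AURKB and the centromere histone gene CENPA had changes of -0.42, -0.27 and -0.28.

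**Figure D4:**
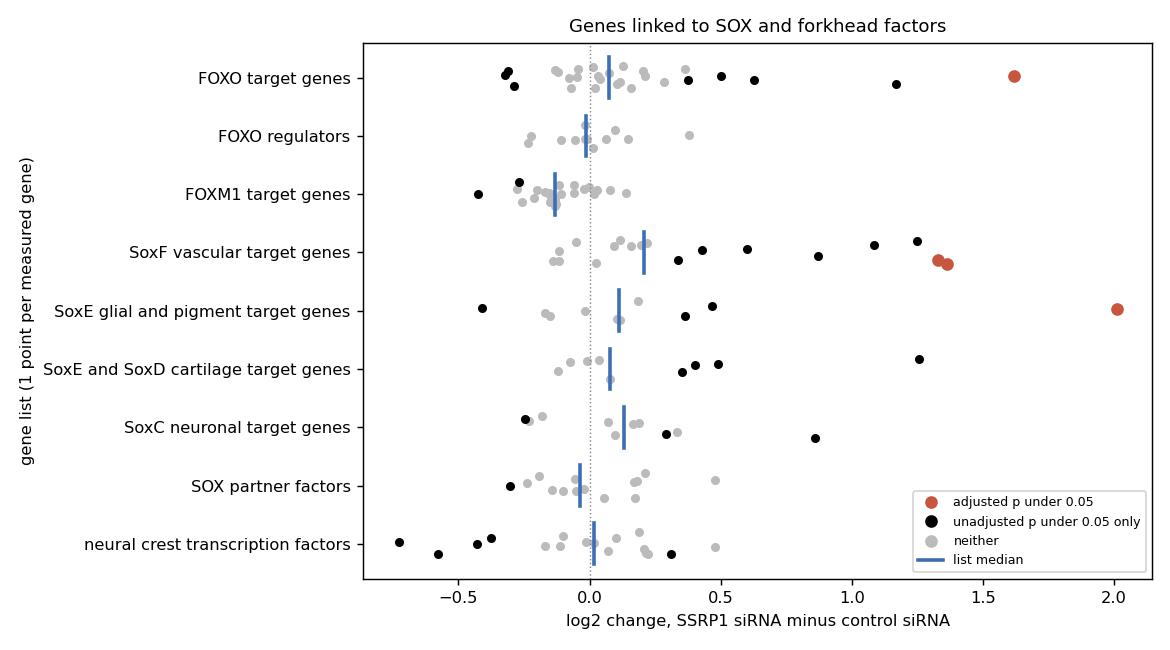
Log2 change of each measured gene (points; x axis, SSRP1 siRNA minus control siRNA) in 9 lists of genes linked to SOX and forkhead factors (y axis), with list medians as blue bars; red marks an adjusted p under 0.05, black an unadjusted p under 0.05 only. The 4 red genes are KLF2, CXCR4, NOTCH1 and EDNRB, and most FOXM1 targets lie just below 0.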

How the data were processed

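Expression was deposited by the authors as log2 values for each probe set, computed by RMA according to the submitters' processing notes. The log2 scale was read from the values (0.502 to 12.8). RMA usually equalises arrays, so a shift of all transcripts would not be visible. Neither the program nor the definition of its probe sets is given in the sources used. Of 46255 probe sets, 15835 had 1 gene symbol in the platform annotation and 30420 were unnamed here. No detection values were used. Some forkhead genes were not analysed here.

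Differences were tested with limma 3.58.1 under R 4.3.3 (lmFit and eBayes, no trend, no filter) over all 14812 genes and 4 arrays, two-sided, SSRP1 siRNA minus control siRNA, with Benjamini-Hochberg adjustment over all genes, 2 residual and 3.79 prior degrees of freedom. Passing means an adjusted p under 0.05. The fit was tested on simulated data. The number of arrays limits the precision. Members and lists were chosen with earlier results of these data known. Values on every array were given for SOX7, SOX9 and members with an unadjusted p under 0.05, groups that did not overlap and a mean at or above the median of all genes; from each pathway list, genes past the test and the 3 with the smallest p were named. Other members and markers were named to account for them, some with values on every array, chosen after those were seen. Alternatives were the replicate block, a variance trend, robust variances, quantile normalization, median centring, averaging the probe sets of a gene, brighter genes only, all probe sets, an adjusted p under 0.1 and leaving out each array.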

Additional observations from a re-analysis of the deposited data

How the results depend on the processing

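All 7 members with an unadjusted p under 0.05 kept the direction of their change in every alternative that gave a value (FOXR1 has none among genes at or above the median level). The count of members past limma's adjusted p of 0.05 was 2 with a variance trend (SOX7 and SOX9, of 215 genes), 1 over genes at or above the median level (SOX7, of 179 genes, with 17 members whose groups did not overlap since fewer members enter) and 0 in the other settings. Over all genes the count of 14 was 6 with the replicate block, 9 with robust variances, 28 after quantile normalization, 23 after median centring, 41 at an adjusted p under 0.1, 0 over all probe sets (where 3854 had an unadjusted p under 0.05) and 0 without any 1 array (1200 to 1672 at an unadjusted p under 0.05). Members at an unadjusted p under 0.05 numbered 4 after median centring, 3 over all probe sets and 4 to 6 without 1 array, and with 3 arrays, where fewer orderings are possible, 42 to 51 members did not overlap (66.7 to 81.0%, against 71.0 to 73.7% of all genes). The forkhead median was -0.025 after median centring and -0.078 to 0.0007 without 1 array, and the SOX median -0.078 to 0.053. The SSRP1 change was -1.95 with the replicate block (limma adjusted p = 0.0569), with robust variances (0.0512) and over all probe sets (0.144), and -2.17 to -1.72 without 1 array (0.241 to 0.599, on 1 residual degree of freedom). The replicate numbers are not known to pair the samples: deviations of same-numbered arrays correlated at 0.114, and with the replicate block 6 members had an unadjusted p under 0.05. Medians of the linked gene and marker lists changed sign in some alternatives except those of FOXO, FOXM1, SoxF and SoxC targets and of endothelial and fibroblast markers. The cause of these differences was not tested unless stated. With 2 arrays per group, a change whose 95% interval holds 0 cannot be told from the spread between arrays.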
